A study of Mus musculus with 10 samples.

Results

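The genes described are the mostly replication-dependent histone genes of the mouse clusters, chosen by name as every gene symbol starting with Hist1h, Hist2h, Hist3h or Hist4h. This rule also took in the testis-type genes Hist1h1t, Hist1h2aa and Hist1h2ba, and Hist3h2bb-ps, whose symbol marks a pseudogene. It gave 68 genes among 24016 symbols in the transcription table, each represented by its longest transcript. Of these, 6 were for the linker histone H1, 18 for H2A, 19 for H2B, 12 for H3 and 13 for H4. By cluster, 54 belonged to Hist1 on chromosome 13, 10 to Hist2 on chromosome 3, 3 to Hist3 on chromosome 11 and 1 to Hist4 on chromosome 6. Another 6 genes for histone variants outside the clusters, H2afx, H2afz, H2afy, H3f3a, H3f3b and H1f0, served as comparison. Nascent RNA was profiled by GRO-seq (global run-on followed by sequencing) in organoids, which are three-dimensional epithelial cultures grown in Matrigel from mouse duodenum. The ENRI group, labelled enterocyte, was cultured with EGF, Noggin, R-spondin and IWP-2, an inhibitor of Wnt secretion, and without Wnt3A and CHIR-99021. The WENRC group, labelled intestinal stem cell, received EGF, Noggin and R-spondin together with Wnt3A and CHIR-99021, a compound that activates Wnt signalling. There were 2 run-on libraries per medium, called batch 1 and batch 2 after the authors' file header, and 1 ChIP-seq library for H3K27me3, the repressive histone mark written by PRC2. The titles number the mice 1 and 2 in both media, and the genotype, strain and age of the mice are not given in the sources used here.

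Histone octamers, built from pairs of H2A, H2B, H3 and H4, wrap DNA into nucleosomes, and H1 binds the DNA between them. Most clustered genes are transcribed mainly in S phase, when new DNA has to be packaged. Their mRNAs end in a stem-loop instead of a poly(A) tail. Variant genes such as H3f3a and H3f3b are transcribed throughout the cell cycle, have introns and make polyadenylated mRNA. In the intestine, dividing cells sit in the crypts and mature enterocytes have left the cell cycle. GRO-seq labels RNA while polymerases already on the DNA run on in nuclei, so it does not select for poly(A) tails.

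Whole reads recovered from the deposited scaled values came to 29128101 and 15787828 in ENRI batches 1 and 2, against 25839484 and 9245915 in WENRC batches 1 and 2. Levels are given as RPKM, scaled reads per kb of transcript and per M reads of the column total. Summed over 6 enterocyte markers the libraries had 533 and 719 RPKM in ENRI, against 36.1 and 12.4 RPKM in WENRC, and 5 stem cell markers summed to 1.69 and 2.27 RPKM in ENRI, against 16.9 and 22.4 RPKM in WENRC. Epithelial markers summed to 108 and 89.9 RPKM in ENRI and to 80.1 and 87.0 RPKM in WENRC. Of markers of other cells, 6 immune genes summed to 5.30 and 5.65 RPKM in ENRI and 13.2 and 16.7 RPKM in WENRC. Only 1 of these 6 reached 0.5 RPKM in at least 2 libraries. Mesenchyme, endothelium and germ line lists stayed between 0.0423 and 2.10 RPKM, with the sperm genes Prm1, Prm2 and Tnp1 at 0 in all 4 libraries. The part of these marker differences in the values below was not tested. Histone genes are short and alike, so reads of near-identical copies may be split or lost by the alignment. Among the 68, 9 have more than 1 genomic copy and 10 overlap another member (Hist1h2ao with Hist1h2ap, Hist1h2bq with Hist1h2br, Hist1h4m with Hist1h4n, Hist2h2aa1 with Hist2h2aa2 and Hist2h3c1 with Hist2h3c2), and these are uncertain as single genes. Reads in such an overlap were counted for both members, as in Hist2h2aa1 and Hist2h2aa2, which had 1186 reads each in ENRI batch 1. The strand setting of the counting is not stated. Of 517 transcripts that lie inside a transcript of the other strand, 0 had more reads than the outer one in any library, as values counted without strand would give, so reads of such partners cannot be separated.

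Promoters are shown first because their motifs differ by histone type while the values that follow also differ within a type. RefSeq promoters (GRCm38.p6, 250 bases before to 50 after the annotated start) matched 62 of the 68 clustered genes and 5 of the 6 variants. Letters were searched on both strands and each motif separately, so matches may share bases, and a match is a description and not a site of binding. The box AAACACA, known from H1 promoters, stood in 5 of 6 H1 promoters and in 7.18% of all 32851 promoters. GGTCCG, the core of the H4 element that the factor Hinfp is known to bind, stood in 11 of 12 H4 promoters, 1 of 16 H2B promoters, 1 of 10 H3 promoters and 8.25% of all promoters. CCAAT, the NF-Y box, stood in every matched H1, H2A, H2B and H3 promoter, in 3 of 12 H4 promoters and in 37.4% of all. The octamer core TTTGCAT stood in 7 of 18 H2A and 6 of 16 H2B promoters, in 1 of 12 H4 promoters, in 0 H1 or H3 promoters and in 4.63% of all. TATAAA was found in 35 of the 62 clustered promoters and in 13.6% of all. The sequences below give the 130 bases before the start of a pair of genes for each of H1, H2B, H3 and H4, 5′ to 3′ on the gene's strand, with capitals for AAACACA in H1, TTTGCAT in H2B, CCAAT in H3 and GGTCCG in H4 promoters. Hist1h1b lies at chr13:21780626-21780755 (minus strand), Hist1h1c at chr13:23738677-23738806 (plus strand), Hist1h2bm at chr13:21721914-21722043 (plus strand) and Hist1h2bg at chr13:23571270-23571399 (plus strand). Hist1h3h lies at chr13:21717498-21717627 (plus strand), Hist1h3d at chr13:23575633-23575762 (plus strand), Hist1h4d at chr13:23581438-23581567 (plus strand) and Hist1h4c at chr13:23698459-23698588 (minus strand).
Hist1h1b: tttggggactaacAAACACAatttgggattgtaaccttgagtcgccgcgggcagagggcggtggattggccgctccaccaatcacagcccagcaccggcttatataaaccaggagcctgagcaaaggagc
Hist1h1c: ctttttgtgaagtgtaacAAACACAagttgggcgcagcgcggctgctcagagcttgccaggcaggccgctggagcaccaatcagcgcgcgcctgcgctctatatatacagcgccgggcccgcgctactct
Hist1h2bm: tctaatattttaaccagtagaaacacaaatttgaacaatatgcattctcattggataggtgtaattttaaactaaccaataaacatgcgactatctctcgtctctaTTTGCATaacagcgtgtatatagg
Hist1h2bg: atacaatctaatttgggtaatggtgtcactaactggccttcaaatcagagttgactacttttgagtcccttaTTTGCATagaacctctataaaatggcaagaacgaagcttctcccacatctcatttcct
Hist1h3h: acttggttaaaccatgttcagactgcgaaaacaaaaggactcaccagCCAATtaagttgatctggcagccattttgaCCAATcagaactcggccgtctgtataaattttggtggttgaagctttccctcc
Hist1h3d: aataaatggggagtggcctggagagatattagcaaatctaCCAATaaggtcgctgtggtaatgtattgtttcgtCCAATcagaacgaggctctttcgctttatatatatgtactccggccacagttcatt
Hist1h4d: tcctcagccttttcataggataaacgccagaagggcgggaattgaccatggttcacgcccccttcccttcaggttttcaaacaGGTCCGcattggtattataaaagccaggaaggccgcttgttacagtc
Hist1h4c: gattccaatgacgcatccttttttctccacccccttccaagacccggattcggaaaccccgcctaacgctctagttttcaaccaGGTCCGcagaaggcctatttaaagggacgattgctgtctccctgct

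Clustered histone genes were transcribed at lower levels in ENRI than in WENRC organoids in nearly all members. Their summed level was 1155 and 1218 RPKM in the ENRI libraries, against 2444 and 2339 RPKM in the WENRC libraries. Both ENRI sums lay far below both WENRC sums, and the mean ENRI sum was 49.6% of the WENRC sum. They took 0.138% and 0.131% of the reads over 1 transcript per gene in ENRI, against 0.264% and 0.248% in WENRC. In bulk organoids, fewer cells of a type and less RNA per cell cannot be told apart.

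**Figure D1:**
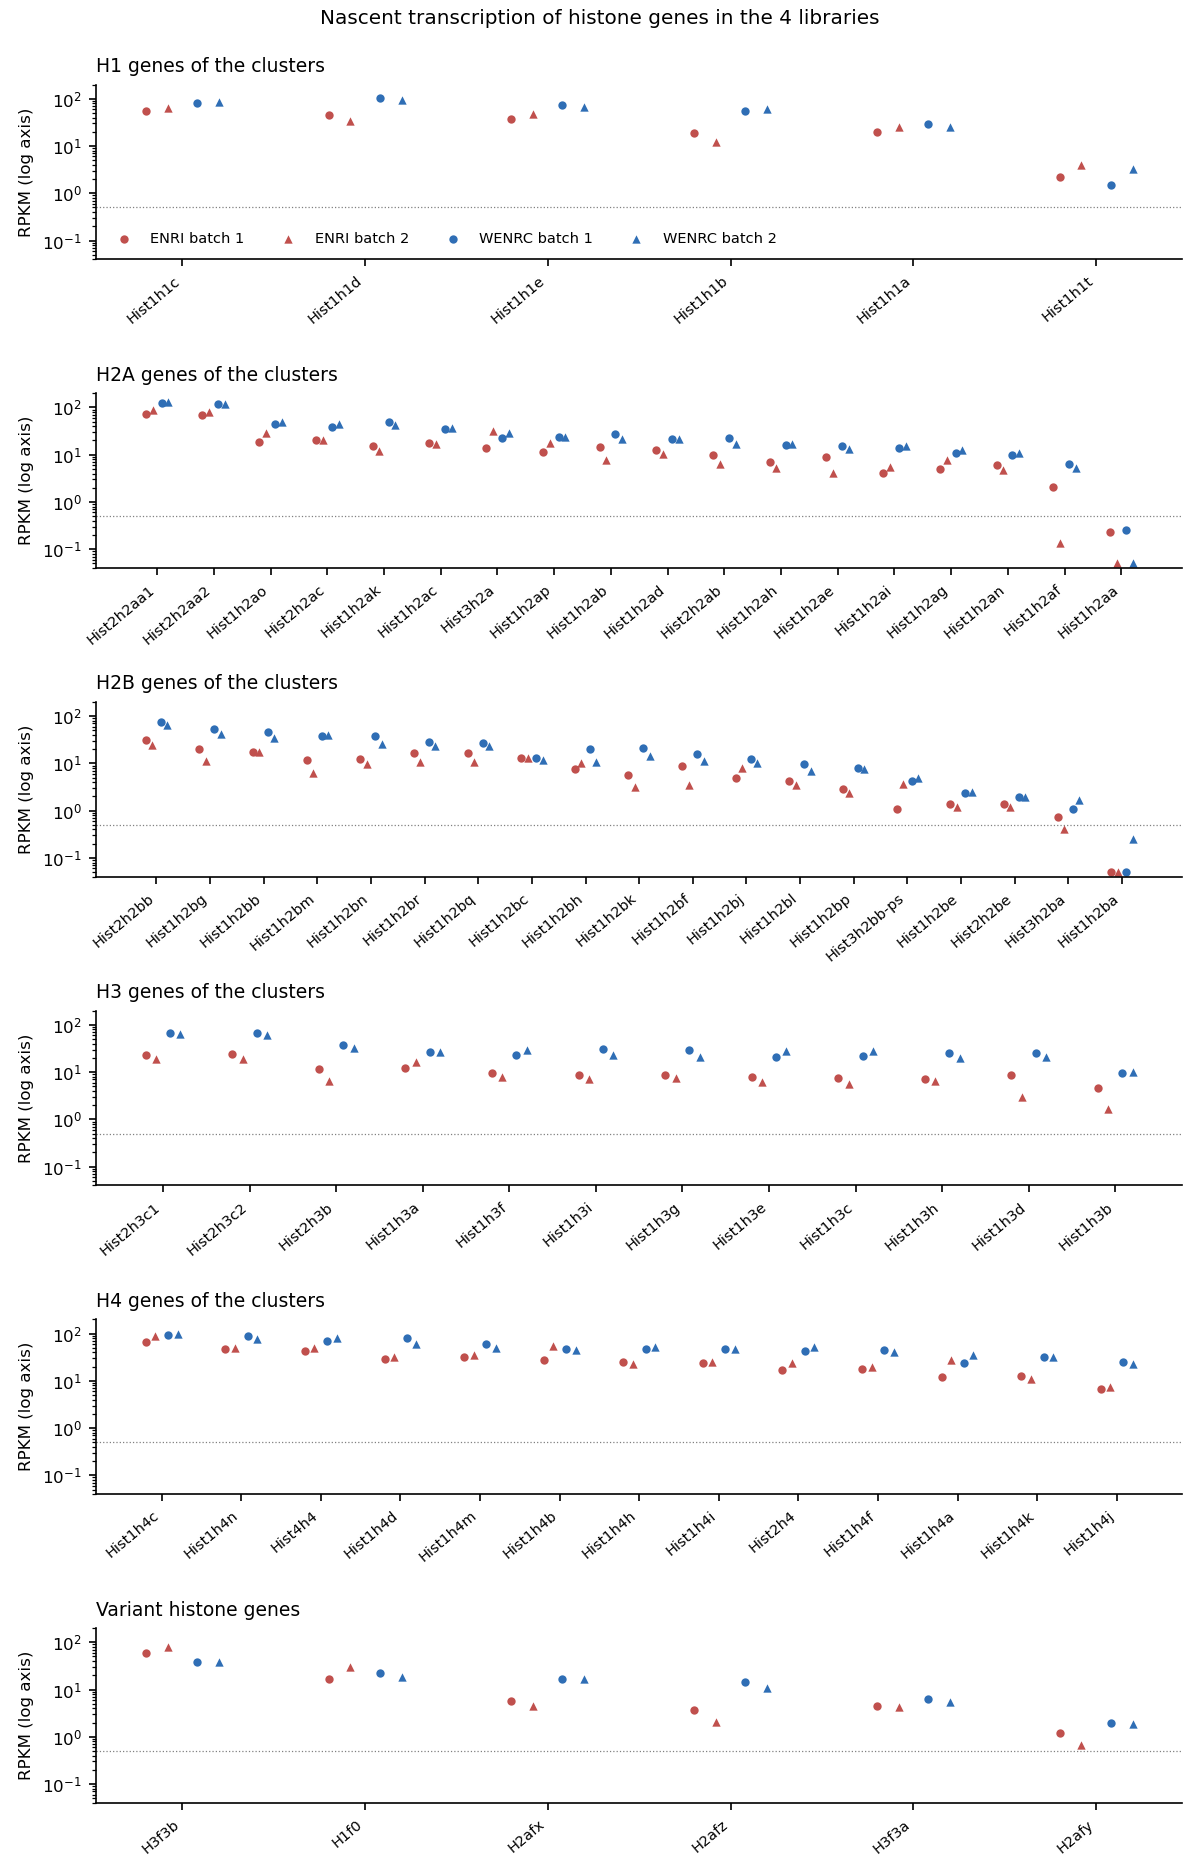
RPKM (log axis) of every clustered and variant histone gene in the 4 libraries, by histone type and ordered by mean level, with circles for batch 1 and triangles for batch 2; the dotted line marks the 0.5 RPKM filter and values of 0 sit on the lower edge. The ENRI points of 61 tested clustered genes lie below both WENRC points, while H3f3b shows the opposite order.

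Of the 68 genes, 66 reached 0.5 RPKM in at least 2 libraries and were tested among 11602 genes with limma on log2(RPKM + 0.5), and all log2 changes below are ENRI over WENRC on that scale. The log2 change was negative in 64 of the 66 (62 in edgeR and DESeq2, where Hist1h4b and Hist3h2a turned positive), against 65.7% of all genes tested, and its median was −1.10, against −0.21 for all genes. Within batches the members' median was −1.14 in batch 1 and −1.11 in batch 2. The scaling of edgeR moved the median of all genes to −0.03, and relative to it the members' median was −0.86, against −0.89 relative to all genes in limma. Both ENRI libraries lay below both WENRC libraries in 61 of the 66 (49.7% of all genes), and both lay above in 0 (23.0%). The members outside this order were Hist1h1t, Hist1h2bc, Hist1h4a, Hist1h4b and Hist3h2a. With 2 libraries a group, 0 clustered genes passed a Benjamini-Hochberg adjusted p of 0.05 in limma, where 0.0862% of all genes passed as lower and 0.0603% as higher. The smallest limma adjusted p among them was 0.0560, and 45 were lower at an unadjusted p under 0.05, against 26.9% of all genes. Count tests on the recovered reads called more members, all lower: 17 by edgeR's quasi-likelihood test (2.84% of all genes lower), 13 by edgeR with batch as a block (2.72%), 28 by DESeq2 (8.89%) and 14 by DESeq2 with the block (4.65%). As higher they called 0 members, against 5.6% and 5.32% of all genes by edgeR without and with the block and 14.7% and 9.69% by DESeq2. The authors' deposited table, from edgeR with batch as a term, lists 18 of the 68 as lower at an FDR under 0.05 (3.06% of all symbols) and 0 as higher (5.65%). The limma count was 37 without the ENRI library of batch 1, where 34.3% of all genes were called lower, and 3 without that of batch 2 (3.33%). It was 0 without either WENRC library (0.0% of all genes lower in both fits).

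The linker histone genes, all in the Hist1 cluster, summed to 177 and 185 RPKM in ENRI, against 348 and 336 RPKM in WENRC. Their median log2 change was −0.62, and the members spread from −1.90 to 0.35. Hist1h1b, which encodes H1.5, had 19.0 and 12.3 RPKM in ENRI, against 55.6 and 61.1 RPKM in WENRC. It was the H1 gene with the lowest ENRI level relative to WENRC, with a log2 change of −1.90 ± 0.35 (SE) and an adjusted p of 0.0424 in edgeR and 0.0565 in limma. Hist1h1d, for H1.3, had 44.9 and 34.1 RPKM in ENRI, against 106 and 96.0 RPKM in WENRC. Its libraries also separated by medium, with a log2 change of −1.35 ± 0.35 and an edgeR adjusted p of 0.0444 (0.0525 with the block), and no other H1 gene passed in edgeR or DESeq2. Hist1h1c, for H1.2, whose human relative also makes polyadenylated RNA, had 54.2 and 62.5 RPKM in ENRI, against 83.0 and 83.5 RPKM in WENRC. Its mean over the 4 libraries, 70.8 RPKM, was the highest of the H1 genes, just above 70.2 RPKM for Hist1h1d. In both WENRC libraries Hist1h1d was the higher one. The media did not overlap for Hist1h1c, and its log2 change was −0.51 ± 0.34. Hist1h1e, for H1.4, differed by −0.73 ± 0.34 and Hist1h1a, for H1.1, by −0.31 ± 0.30. Hist1h1t, the H1 of spermatocytes, had 2.20 and 3.97 RPKM in ENRI, against 1.48 and 3.24 RPKM in WENRC. Its media overlapped, and batch 2 was the higher one in each. The promoters of Hist1h1b and Hist1h1c printed above both carry AAACACA, at positions −117 and −112 from the start, and Hist1h1t carries it at −114, while Hist1h1a is the H1 promoter without it in this window.

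H2A genes summed to 309 and 346 RPKM in ENRI, against 596 and 608 RPKM in WENRC. The log2 ratio of these sums was −0.88, and −1.09 without the overlapping members. All 17 tested had a negative log2 change (16 in edgeR and DESeq2), with a median of −0.98, and 13 were lower at an unadjusted p under 0.05, but edgeR called 1 and DESeq2 3 of them (1 each with the block). Hist1h2ak, the member edgeR called, had 15.0 and 12.2 RPKM in ENRI, against 50.3 and 42.5 RPKM in WENRC. Its log2 change was −1.74 ± 0.30 (edgeR adjusted p 0.0424), and both ENRI libraries lay far below both WENRC libraries. DESeq2 added Hist1h2ai at −1.51 ± 0.24 (DESeq2 adjusted p 0.0284, or 0.150 with the block) and Hist1h2ah at −1.38 ± 0.24 (0.0217, or 0.167 with the block). Hist1h2af had the largest negative value of all clustered genes, −2.31 ± 0.70, from 28 and 1 reads in ENRI and 77 and 23 reads in WENRC. That value rests on few reads, its ENRI libraries differ widely, and neither edgeR nor DESeq2 called it, although the authors' deposited table lists it at an FDR of 0.0309. The most transcribed were the overlapping Hist2 copies Hist2h2aa1 and Hist2h2aa2, and Hist2h2aa1 had 73.4 and 86.8 RPKM in ENRI, against 124 and 131 RPKM in WENRC. Its media separated, with a smaller log2 change of −0.67 ± 0.36. Hist2h2ac and Hist1h2ao, next in level, differed by −1.001 ± 0.29 and −0.97 ± 0.36. Hist3h2a had 14.0 and 31.4 RPKM in ENRI, against 22.8 and 28.4 RPKM in WENRC, and its media overlapped. Hist1h2aa, a testis-type H2A gene, had 3 and 0 reads in ENRI and 3 and 0 reads in WENRC and was not tested.

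H2B genes summed to 178 and 140 RPKM in ENRI, against 418 and 338 RPKM in WENRC. Of 18 tested, 17 had a negative log2 change, the median was −0.998, and edgeR called 3 (4 with the block) and DESeq2 8 (3 with the block), all lower. Hist1h2bm had 11.97 and 6.31 RPKM in ENRI, against 38.2 and 39.0 RPKM in WENRC. Both ENRI values were under a level that the WENRC libraries nearly shared, with a log2 change of −2.09 ± 0.39 and an edgeR adjusted p of 0.0456. Hist2h2bb, the most transcribed H2B gene, had 30.6 and 24.1 RPKM in ENRI, against 75.9 and 66.4 RPKM in WENRC. Its log2 change was −1.37 ± 0.33 (edgeR adjusted p 0.0453, or 0.0507 with the block). Hist1h2bg, whose promoter is printed above with TTTGCAT at position −58, had 19.7 and 11.4 RPKM in ENRI, against 54.2 and 42.7 RPKM in WENRC. It passed in DESeq2 (adjusted p 0.00381) and missed in edgeR (0.0573, or 0.0376 with the block, which passes), with a log2 change of −1.65 ± 0.40. Hist1h2bk, at −1.92 ± 0.38, likewise passed in DESeq2 (0.00405) and missed in edgeR (0.0578, or 0.0425 with the block).

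For 3 H2B genes the value depends on the transcript chosen. Hist1h2bc has an 8281 bp transcript with 12.8 and 13.2 RPKM in ENRI, against 13.3 and 11.7 RPKM in WENRC, so its media overlapped and its log2 change was 0.06 ± 0.23. Its 468 bp transcript, a length near that of the other H2B genes, had 30.4 and 27.5 RPKM in ENRI, against 64.3 and 45.1 RPKM in WENRC, and a log2 change of −0.89 ± 0.34. On that transcript the ENRI libraries lay below the WENRC libraries, and the sign turned. Hist1h2be differed by −0.73 ± 0.13 over 37454 bp and by −1.69 ± 0.43 over 444 bp. Hist1h2bp, the third H2B gene edgeR called, differed by −1.45 ± 0.19 over its longest and by −1.61 over its shortest transcript. Hist2h2be, whose human relative makes polyadenylated RNA as well, differed by −0.45 ± 0.13 over 2617 bp. The testis-type gene Hist1h2ba had 0 reads in both ENRI libraries and 0 and 1 reads in WENRC, and was not tested.

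H3 genes had the lowest ENRI share of the 5 types: they summed to 133 and 106 RPKM in ENRI, against 383 and 363 RPKM in WENRC, so the ENRI mean was 32.1% of the WENRC mean. All 12 were tested, all had both ENRI libraries below both WENRC libraries, and all were lower at an unadjusted p under 0.05. The median log2 change was −1.64, with −1.48 in batch 1 and −1.79 in batch 2. EdgeR called 9 of the 12 (7 with the block), DESeq2 10 (8 with the block) while 10 are listed under an FDR of 0.05 in the authors' deposited table. Hist2h3c1 and Hist2h3c2, which overlap and share most of their reads, are counted separately in all of these calls. They were the most transcribed and had nearly equal values, with 23.4 and 18.9 RPKM for Hist2h3c1 in ENRI, against 66.0 and 63.1 RPKM in WENRC. Its log2 change was −1.59 ± 0.31 and its edgeR adjusted p 0.0424. Hist2h3b had 11.4 and 6.57 RPKM in ENRI, against 37.1 and 31.7 RPKM in WENRC, a log2 change of −1.93 ± 0.36 (edgeR adjusted p 0.0459). In the Hist1 cluster, Hist1h3h had 6.98 and 6.63 RPKM in ENRI, against 25.4 and 19.8 RPKM in WENRC. Replicates of Hist1h3h nearly matched within ENRI, and its log2 change was −1.65 ± 0.26 (edgeR adjusted p 0.0448). Hist1h3d had 8.67 and 3.02 RPKM in ENRI, against 25.3 and 21.1 RPKM in WENRC, and its ENRI libraries differed more from each other. It had the largest negative H3 value, −2.05 ± 0.53, and passed in DESeq2 (adjusted p 0.0122) but not in edgeR (0.0860). Hist1h3c, Hist1h3e, Hist1h3f, Hist1h3g and Hist1h3i, all called by edgeR, lay between −1.83 and −1.57. With the block, Hist1h3e, Hist1h3g and Hist1h3h missed in edgeR and Hist1h3d passed (adjusted p 0.0481).

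Hist1h3a stood apart from the other H3 genes, with 11.99 and 16.1 RPKM in ENRI, against 26.5 and 26.1 RPKM in WENRC. Its media still separated, but its log2 change of −0.90 ± 0.29 was the smallest of the type and it passed in neither edgeR nor DESeq2. Hist1h3b, the least transcribed H3 gene, had 4.55 and 1.65 RPKM in ENRI, against 9.67 and 9.87 RPKM in WENRC, and was also not called by edgeR or DESeq2. By cluster, the 9 Hist1 H3 genes had a median log2 change of −1.65 and the 3 Hist2 H3 genes of −1.59. The Hist2 median rests on Hist2h3c1 and Hist2h3c2, which share most of their reads. Within each library the ratio of summed H3 to summed H4 RPKM was 0.370 and 0.241 in ENRI, against 0.547 and 0.524 in WENRC. Such ratios do not depend on the scaling of a library, and the ENRI ratios were the lower ones. The difference between types was not tested.

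**Figure D2:**
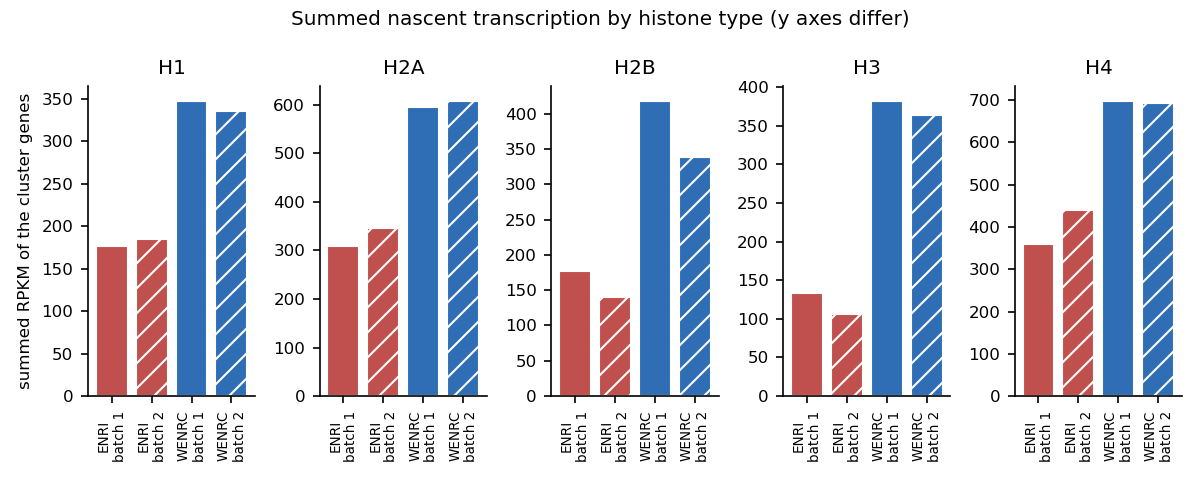
Summed RPKM of the clustered genes of each histone type in each library, red for ENRI and blue for WENRC, with batch 2 hatched and a separate y axis from 0 for each type. H3 shows the lowest ENRI bars relative to WENRC (133 and 106 against 383 and 363 RPKM) and H4 the highest (359 and 441 against 699 and 693 RPKM).

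H4 genes were the most transcribed type in sum, with 359 and 441 RPKM in ENRI, against 699 and 693 RPKM in WENRC, an ENRI mean of 57.5% of the WENRC mean. All 13 had a negative log2 change (12 in edgeR and DESeq2), with a median of −0.96 and a range from −1.64 to −0.27. EdgeR called 2 (0 with the block), DESeq2 5 (0 with the block), and 0 are listed under an FDR of 0.05 in the authors' deposited table. Hist1h4c, the most transcribed, had 65.5 and 86.7 RPKM in ENRI, against 91.0 and 99.5 RPKM in WENRC. Its media were close without overlapping, and its log2 change was −0.33 ± 0.37. Hist1h4d had 29.2 and 32.3 RPKM in ENRI, against 79.7 and 60.4 RPKM in WENRC, a log2 change of −1.16 ± 0.34 that passed in DESeq2 (adjusted p 0.0304, or 0.174 with the block) and not in edgeR (0.0656). The promoters of Hist1h4c and Hist1h4d carry GGTCCG at positions −46 and −47. Hist1h4j had 6.84 and 7.54 RPKM in ENRI, against 24.5 and 22.3 RPKM in WENRC. It was the lowest H4 gene in level, with a log2 change of −1.64 ± 0.24 and an edgeR adjusted p of 0.0494. Hist1h4k, also called by edgeR (adjusted p 0.0450), differed by −1.43 ± 0.26. Hist1h4b had 27.1 and 54.0 RPKM in ENRI, against 47.4 and 45.3 RPKM in WENRC, so its ENRI libraries lay on both sides of WENRC. Hist1h4a, the H4 promoter without GGTCCG in this window, also overlapped, with 12.3 and 26.9 RPKM in ENRI, against 23.4 and 35.0 RPKM in WENRC.

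Set beside the promoter motifs, without a test, the 33 clustered genes with TATAAA had a median log2 change of −1.17 and the 27 matched genes without it −0.90. Among H4 genes these medians were −1.05 for the 8 with TATAAA and −0.52 for the 4 without it. A match anywhere in the window counts, so it need not be a TATA box near the start. In H4 promoters the matches lay from −250 (Hist1h4f) to 41 (Hist1h4a), with that of Hist1h4d at −32. Other spellings do not count, such as the tatatata printed above for Hist1h1c. Among H2B genes the 5 with TTTGCAT had a median of −1.65 and the 10 without it −0.89, and among H2A genes the 6 with TTTGCAT had −1.08 and the 11 without it −0.90. Over all clustered genes these medians were −1.17 for 12 with TTTGCAT and −1.04 for 48 without it. The H2A and H2B splits are not independent, since neighbours in opposite directions share promoter bases. The match of Hist1h2bg at −58 and that of Hist1h2ae at −128 are the same bases. For H3 genes the medians were −1.67 with TATAAA and −1.66 without it. Other splits went the other way. The 3 H4 genes with CCAAT had −0.64 and the 9 without it −0.96. Over all clustered genes the 13 with GGTCCG had −0.96 and the 47 without it −1.17. Of these 13, 11 are H4 genes, so this split largely follows histone type. Among H4 genes alone the 11 with GGTCCG had −0.96 and the 1 without it −0.64. These groups are small, and the differences between them were not tested.

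**Figure D3:**
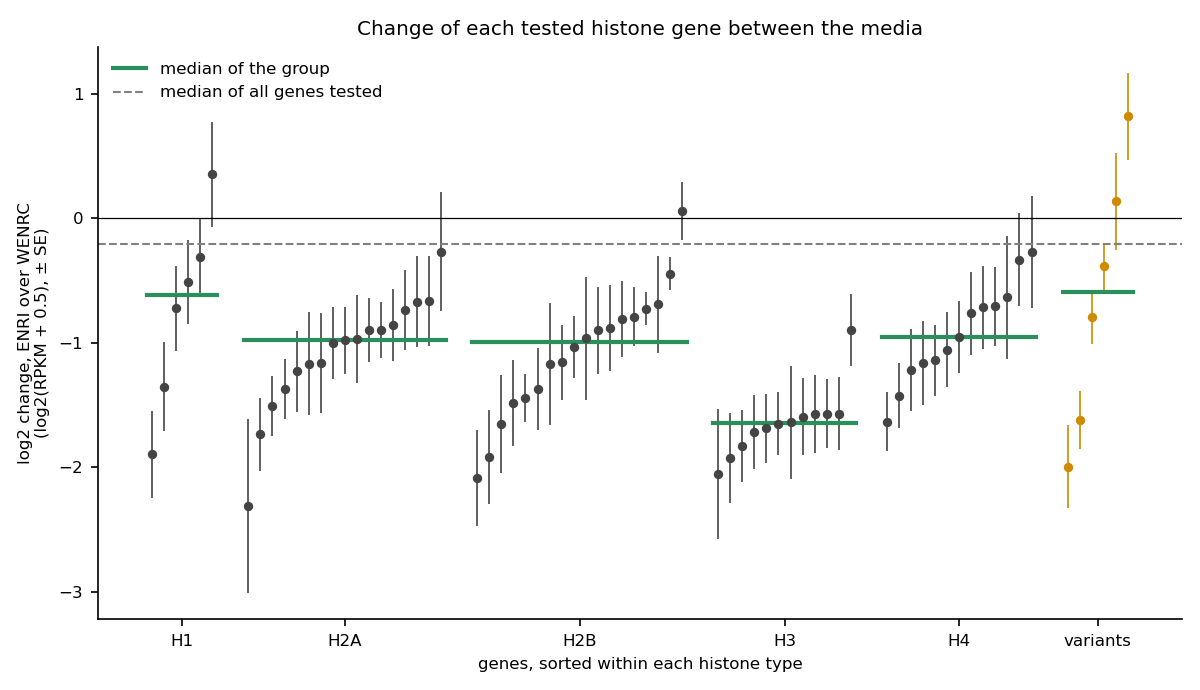
Log2 change (ENRI over WENRC, log2(RPKM + 0.5)) with its SE for each tested histone gene, sorted within its type, with green lines for the type medians and a dashed line for the median of all genes tested. The H3 genes gather around −1.64, with Hist1h3a above at −0.90, while H1, H2A, H2B, H4 and the variants spread more widely.

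In mm9 the Hist1 genes lie between 21807582 and 24026782 on chromosome 13, and the Hist2 genes between 96023839 and 96074115 on chromosome 3 (coordinates as in the file, which does not state their base). Hist1 genes summed to 818 and 846 RPKM in ENRI, against 1754 and 1635 RPKM in WENRC, and Hist2 genes to 279 and 288 RPKM in ENRI, against 591 and 589 RPKM in WENRC. The log2 ratios of the sums were −1.03 for Hist1 and −1.06 for Hist2, and −1.07 for Hist1 and −1.32 for Hist2 without the overlapping members, whose shared reads enter a sum more than once. Hist4h4, the lone Hist4 gene, at 136752514 to 136752952 on chromosome 6, had 42.4 and 48.9 RPKM in ENRI, against 70.3 and 80.0 RPKM in WENRC. It separated by medium, with a log2 change of −0.71 ± 0.33. The 3 Hist3 genes, between 58762413 and 58768694 on chromosome 11, summed to 15.9 and 35.5 RPKM in ENRI, against 28.2 and 34.9 RPKM in WENRC. The ENRI library of batch 2 reached the WENRC level there, and the log2 ratio of −0.30 became 0.17 without the ENRI library of batch 1.

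Many H2A and H2B genes face each other across a shared promoter region. Among single-copy members, 12 neighbours in opposite directions started within 1 kb of each other, 11 with both genes tested, of which 10 paired H2A with H2B. Both genes had negative log2 changes in 10 of the 11, where 64 of all 66 tested members were negative. The size of the difference within a pair had a median of 0.55 and ranged from 0.05 to 1.04. Whether neighbours were more alike than other members was not tested. Hist1h2ag and Hist1h2bj, 281 bp apart, had nearly equal log2 changes of −0.86 ± 0.29 and −0.81 ± 0.30. Hist1h2bh and Hist1h3f, the pair with an H3 gene, were 608 bp apart and differed more, with −0.69 ± 0.39 for Hist1h2bh and −1.57 ± 0.28 for Hist1h3f. The pair with the widest difference was Hist1h2ac with Hist1h2bc, on the long Hist1h2bc transcript described above.

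The variant genes differed in direction. H2afz, for H2A.Z, a variant found at promoters, had 3.65 and 2.03 RPKM in ENRI, against 14.3 and 10.8 RPKM in WENRC. H2afx, for H2A.X, which is phosphorylated at DNA breaks and also makes a stem-loop mRNA, had 5.79 and 4.52 RPKM in ENRI, against 16.9 and 16.7 RPKM in WENRC. For both, the ENRI libraries lay far below the WENRC libraries, with log2 changes of −1.995 ± 0.33 for H2afz (edgeR adjusted p 0.0448) and −1.62 ± 0.24 for H2afx (0.0424). H3f3b, a gene for the replication-independent H3.3, had 58.3 and 79.8 RPKM in ENRI, against 38.3 and 38.7 RPKM in WENRC. Both ENRI libraries were above both WENRC libraries, with a log2 change of 0.82 ± 0.35, which passed in DESeq2 (adjusted p 0.00313, or 0.0303 with the block) and in neither limma (0.159) nor edgeR (0.0604). H3f3a, which encodes the same protein, had 4.50 and 4.28 RPKM in ENRI, against 6.39 and 5.44 RPKM in WENRC. It thus lay lower in ENRI without passing, at −0.39 ± 0.19. H1f0, for H1.0, known to accumulate in differentiated cells, had 16.9 and 29.8 RPKM in ENRI, against 22.9 and 18.2 RPKM in WENRC, and its media overlapped. H2afy, for macroH2A1, had 1.19 and 0.667 RPKM in ENRI, against 1.99 and 1.88 RPKM in WENRC, and at −0.79 ± 0.22 passed in none of the 3 tools. In limma 0 of the 6 passed, with 3 lower at an unadjusted p under 0.05. EdgeR called 2 lower, and DESeq2 called 2 lower and 1 higher. The authors' deposited table lists H2afz at an FDR of 0.000500, H2afx at 0.0112 and H3f3b at 0.0704.

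Within each library the H3.3 genes stood differently beside the clustered H3 genes in each medium. The summed RPKM of H3f3a and H3f3b was 0.472 and 0.792 times that of the 12 clustered H3 genes in ENRI, against 0.117 and 0.121 times in WENRC. The ENRI ratios were above the WENRC ratios and differed between the batches. H1f0 made up 8.72% and 13.9% of the summed H1 level, itself included, in ENRI, against 6.16% and 5.15% in WENRC. These are levels of transcription per length and not amounts of protein.

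Genes that regulate histone transcription, process histone mRNA or carry histones to DNA had smaller log2 changes on log2(RPKM + 0.5). Their levels were mostly low, and the added 0.5 brings log2 changes of low values nearer 0. With a pseudocount of 0.1 their median was −0.75, against −1.15 for the clustered genes. Of 35 listed, 33 were tested, and 32 had a negative log2 change (29 in edgeR and DESeq2), against 65.7% of all genes in limma. The median with the added 0.5 was −0.53. In limma 0 passed (0.0862% of all genes lower). EdgeR called 2 (2.84% of all genes lower) and 0 with the block (2.72%). DESeq2 called 6 (8.89%) and 2 with the block (4.65%), and all these calls were lower. Nasp, a chaperone of H3 and H4, had 1.21 and 1.12 RPKM in ENRI, against 2.37 and 2.83 RPKM in WENRC, and Asf1b, a chaperone that hands H3 and H4 to assembly factors, had 0.313 and 0.280 RPKM in ENRI, against 0.827 and 0.835 RPKM in WENRC. Both separated by medium and were the genes edgeR called, with log2 changes of −0.90 ± 0.14 for Nasp (adjusted p 0.0492, or 0.0778 with the block) and −0.74 ± 0.12 for Asf1b (0.0452, or 0.0586 with the block). Slbp, which binds the stem-loop of histone mRNA, had 1.47 and 1.39 RPKM in ENRI, against 2.67 and 3.19 RPKM in WENRC. Its log2 change of −0.82 ± 0.15 passed in DESeq2 (adjusted p 0.0424, or 0.239 with the block) and not in edgeR (0.0654). Npat, the coactivator of the clustered genes, had 0.755 and 0.442 RPKM in ENRI, against 1.08 and 1.09 RPKM in WENRC, and at −0.54 ± 0.18 passed in none of the 3 tools. Hinfp had a positive log2 change in limma, 0.45 ± 0.29, and did not pass. On log2(RPKM + 0.5) the largest values of the list were −1.12 ± 0.45 for Nap1l1, −0.99 ± 0.36 for Ssrp1 and −0.90 ± 0.18 for Asf1a. That order depends on the added 0.5. Lsm11, at −0.73 ± 0.20, had means of 0.247 RPKM in ENRI and 0.727 RPKM in WENRC, a larger ratio than that of Nap1l1 (1.07 and 2.59 RPKM). In Nap1l1, a chaperone of H2A and H2B, the ENRI libraries had 1.73 and 0.414 RPKM, against 2.61 and 2.57 RPKM in WENRC, so its ENRI libraries differed widely.

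Genes of DNA replication were lower in ENRI as well. Of 30 listed, 29 were tested, all with a negative log2 change (27 in edgeR and DESeq2), against 65.7% of all genes in limma. Their median was −0.93, and 24 were lower at an unadjusted limma p under 0.05, against 26.9% of all genes. In limma 0 passed (0.0862% of all genes lower). EdgeR called 1 lower (2.84% of all genes) and 10 with the block (2.72%). DESeq2 called 18 lower (8.89%) and 13 with the block (4.65%). The authors' deposited table lists 15 as lower under an FDR of 0.05, against 3.06% of all symbols. Rrm2, a subunit of ribonucleotide reductase, had 1.76 and 0.860 RPKM in ENRI, against 5.23 and 4.61 RPKM in WENRC. Rfc4, a subunit of the clamp loader, had 3.38 and 2.03 RPKM in ENRI, against 6.88 and 8.75 RPKM in WENRC. Their media did not overlap, with log2 changes of −1.63 ± 0.29 for Rrm2 and −1.40 ± 0.29 for Rfc4. Tyms, thymidylate synthase, followed at −1.27 ± 0.25. The proliferation marker Mki67 had 2.72 and 1.87 RPKM in ENRI, against 6.67 and 6.10 RPKM in WENRC, and 5 proliferation markers together had 6.22 and 3.84 RPKM in ENRI, against 17.8 and 16.5 RPKM in WENRC. All 5 had negative log2 changes, none of them was at 0, and their part in the histone values was not tested.

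**Figure D4:**
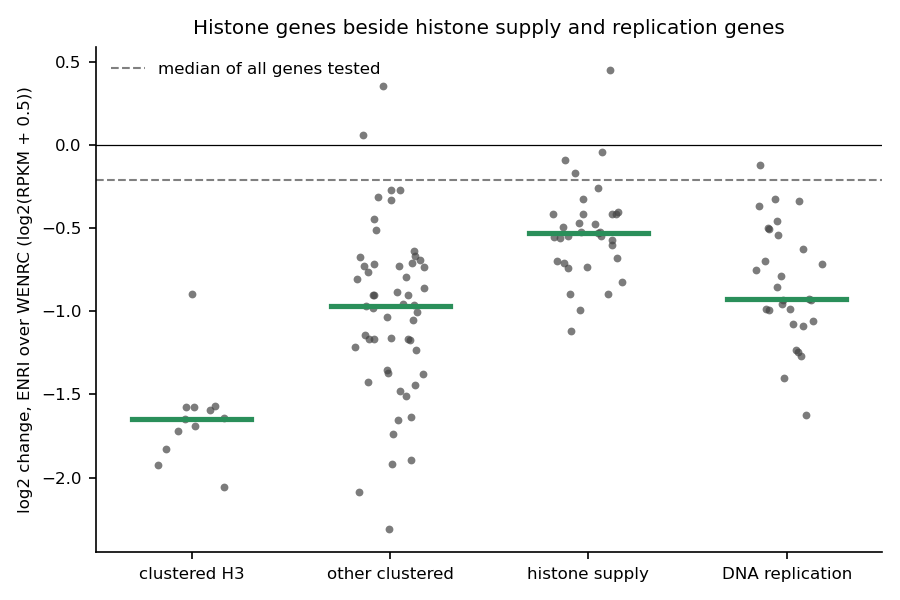
Log2 change (ENRI over WENRC, log2(RPKM + 0.5)) of each tested gene among clustered H3 genes, other clustered histone genes, histone supply genes and DNA replication genes, with green lines for medians and a dashed line for the median of all genes tested. The median is −0.53 for supply and −0.93 for replication genes, and the H3 genes other than Hist1h3a lie below −1.5. With a pseudocount of 0.1 the medians are −0.75 for supply and −1.27 for replication genes, against −1.15 for all clustered genes (−1.10 with 0.5).

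H3K27me3 regions were nearly absent from the histone promoters in both media, with 1 ChIP library each and no test between them. Of the 68 clustered genes, 1 had a broad region within 2 kb of its start in ENRI and 0 in WENRC, against 8.76% and 10.5% of all genes. That gene was Hist3h2bb-ps, whose symbol marks an H2B pseudogene, and the region, chr11:58765015-58766015 in mm9, reached the window by its edge, 1999 bp from the start, with the authors' fold over input of 4.32. In the narrow lists Hist3h2ba and Hist3h2bb-ps were marked in ENRI and Hist3h2ba in WENRC, against 19.6% and 17.8% of all genes. Both are among the least transcribed clustered genes, with 0.745 and 0.412 RPKM for Hist3h2ba in ENRI, against 1.09 and 1.64 RPKM in WENRC, and with 1.11 and 3.69 RPKM for Hist3h2bb-ps in ENRI, against 4.25 and 4.90 RPKM in WENRC. Neither passed in limma, edgeR or DESeq2. Of the 6 variants, 0 had a broad region at the promoter in either medium. The nearest broad region lay at a median distance of 191 kb in ENRI (range 2.00 to 285 kb) and 173 kb in WENRC (12.01 to 402 kb). In ENRI 3 clustered genes, all in Hist3, had a broad region within 10 kb, against 0 in WENRC. Of the 68 genes, 54 lie in Hist1, and many neighbours shared the same nearest region. The shares and distances therefore do not rest on 68 separate places.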

How the data were processed

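The authors deposited GRO-seq transcription as signal: scaled reads per RefSeq transcript of mm9, counted over gene bodies with HOMER, per the file headers. Columns carry the medium and a batch number and not a mouse. FastQC, Bowtie, Bowtie2, HOMER 4.3 and edgeR are named in the submitters' processing notes. Each column summed to 20.0M, and low values (up to 200 reads) divided by a step specific to each library gave whole numbers (100%, tolerance 0.1), so counts of whole reads were recovered from the deposited signal. The deposited log2 fold changes, p-values and FDR are from edgeR with batch as a term, per the file headers. The authors called H3K27me3 regions with HOMER in each library against input; per the file headers the score is a tag count, the fold is the ratio of ChIP to input tags, at least 4, and the libraries had 29.8M (ENRI) and 31.4M tags (WENRC). The 4 deposited RPKM columns, the input libraries and the H3 libraries were not used here.

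RPKM was computed from the scaled reads, 1 row per symbol (longest transcript). Genes reaching 0.5 RPKM in 2 or more libraries entered limma 3.58.1 (R 4.3.3, mean trend, no block) on log2(RPKM + 0.5), adjusted over 11602 genes. The p-values measure the spread between these libraries, which may include technical spread. EdgeR 4.0.16 and DESeq2 1.42.0 on recovered reads, pseudocounts, filters, scalings, each library left out, copies left out, promoter widths and overlaps were alternatives. The titles number the mice but the columns carry no mouse, so the block used the header batches. Whether a batch is a mouse is not stated. Deviations of libraries of the same batch correlated at 0.0126 over 11602 genes. Scripts were tested on simulated data.

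A promoter was 2 kb either side of the start in the file, and 1 bp of overlap with a region marked it. The genes and lists were chosen with earlier results of these data known. The named genes were, per type, the 4 most transcribed, the 3 clustered genes with the largest change in each direction, all clustered genes called by any tool, the variants, promoters with H3K27me3, testis-type genes, 3 genes with human polyadenylated relatives, 3 genes each from the supply and replication lists by size of change, and Npat, Slbp and Mki67. Of these, 61 in all, the text gives a part, and it also names genes outside this rule, chosen after their values were seen.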

Additional observations from a re-analysis of the deposited data

How the results depend on the processing

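Across all genes limma called 17, against 1 with a pseudocount of 0.1, 0 without a filter, 1491 with a filter of 10 reads, 929 after quantile normalization (507 higher, 422 lower), 0 with the replicate block, 979 by edgeR (932 with the block), 2738 by DESeq2 (1664 with the block) and 0 to 5794 with 1 library left out. EdgeR and DESeq2 gave more higher than lower calls (650 and 329, 1707 and 1031), where limma gave 7 and 10. For clustered genes the count was 0 in limma, 17 with the 10-read filter, 5 after quantile normalization, 17 by edgeR (13 with the block), 28 by DESeq2 (14) and 0 to 37 with 1 library left out, all lower. For variants it was 0 in limma, 2 with the 10-read filter, after quantile normalization and by edgeR with or without the block, 3 by DESeq2 with or without it, and 0 to 3 with 1 library left out. The median of all genes was −0.21, and −0.28 with a pseudocount of 0.1, −0.0155 without a filter, −0.0938 with the 10-read filter, −0.0421 after quantile normalization and −0.0621 after median centring. The clustered median of −1.10 was −1.15 and −1.07 with pseudocounts of 0.1 and 1, −1.04 without a filter or after quantile normalization, −0.95 after median centring, −0.89 by edgeR (−0.92 with the block), −0.87 by DESeq2 (−0.90), and −1.17 to −1.03 with 1 library left out. It was −1.16 without members of several copies or rows. Chosen after seeing the data, the shortest transcripts gave −1.15 and leaving out overlapping members −1.16. Relative to the median of all genes it was −0.89 in limma, −1.001 after quantile normalization, −0.86 by edgeR and −0.87 by DESeq2. The variant median was −0.72 with a pseudocount of 0.1, −0.44 after median centring and −0.74 to −0.44 with 1 library left out. The supply median was −0.75 with a pseudocount of 0.1 and −0.31 after quantile normalization, and the replication median −1.27 and −0.64 with pseudocounts of 0.1 and 1 and −0.64 after quantile normalization. The log2 ratio of the summed clustered level was −0.75 with TMM scaling, against −1.01. Clustered promoters with H3K27me3 in ENRI numbered 2 in the narrow lists, 0 within 1 kb, 3 within 5 kb, 0 with an overlap of 500 bp and 0 among regions at or above the median score, and in WENRC 1 in the narrow lists. With 1 library left out, the sign turned in places: the Hist3 sum ran from −0.99 to 0.17 (without ENRI replicate 1), H1f0 from −0.27 (without ENRI replicate 2; −0.0241 without WENRC replicate 2) to 0.53, Hist1h1t from −0.11 (without WENRC replicate 1; −0.0112 without ENRI replicate 2) to 0.81 and Hist1h2bc from −0.0330 (without WENRC replicate 2) to 0.15. Likewise Hist1h4b ran from −0.76 (without ENRI replicate 2) to 0.22 and Hist3h2a from −0.84 (without ENRI replicate 2) to 0.30 (both without ENRI replicate 1). Hist1h4b was 0.0615 by edgeR and 0.10 by DESeq2, Hist3h2a 0.0827 and 0.12, and Hist1h2bc −0.89 on the shortest transcript. The cause of these moves was not tested. With the replicate block the 0 limma calls of clustered and variant genes stayed at 0, and edgeR and DESeq2 counts moved as given here. Fits that leave out a library assume that the remaining one of its medium varies like the other medium. Replicate numbers are the header batches. Depth limits members with few reads, such as Hist1h2af, Hist1h2aa and Hist1h2ba.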
